A study of Mus musculus with 2 samples.

Results

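The genes described here are 34 genes of the type I interferon response, chosen by symbol: the receptor chains, the transcription factors that carry the signal, and genes that the signal induces. Of these, 33 had a row among the 27998 genes counted in both libraries, and Mx2 was not analysed here. They were followed in single-cell RNA libraries of mouse spinal cord, 1 library per group, in a study of microglia, macrophages that reside in the central nervous system, after deletion of the transcription factor Runx1. Both groups were mice of the C57BL/6J background carrying Cx3cr1-CreERT2-YFP::flxRunx1, in which Runx1 is floxed and Cx3cr1, active in microglia and related phagocytes, drives yellow fluorescent protein (YFP) and a Cre recombinase that tamoxifen switches on. One group received vehicle and is labelled wild type, and the other received 1 mg tamoxifen per day for 5 days and is labelled Runx1 knock-out. The drug and the deletion therefore cannot be told apart. Cells positive for YFP were sorted 4 weeks after the first injection. The labels give neither the number nor the age of the animals in each library.

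Type I interferons bind a receptor made of the chains Ifnar1 and Ifnar2. Janus kinases at the receptor activate a complex that holds Stat2 and Irf9 and binds an interferon-stimulated response element in the promoters of genes that largely act against viruses. In the central nervous system microglia, endothelial cells and mural cells can all respond, and a low level of the programme is present without infection.

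The libraries held 4582 barcodes and 37446978 unique molecular identifiers (UMIs, counted RNA molecules) for the wild type and 2604 barcodes with 13075939 UMIs for the other library, with 9 barcodes present in both. In both, clusters with the markers of endothelial and mural cells stood beside the microglia that the sort was aimed at. Clusters named by their markers gave 2196 and 1378 microglia barcodes, 1535 and 862 endothelial barcodes, and 182 and 125 mural barcodes (pericytes and smooth muscle). The libraries clustered apart within a class: 2181 of the wild-type microglia lay in one cluster and 1337 of those of the other library in another, as did 1463 and 791 of the endothelial barcodes. A cluster with microglia and endothelial markers together, of 454 and 97 barcodes, was left out of the classes. Levels are UMIs summed over the barcodes of a class, in CPM, that is, per 1000000 UMIs of the same barcodes, with exact Poisson 95% intervals. A ratio is the log2 of the CPM of the library labelled knock-out over that of the wild type, with an exact conditional binomial 95% interval. Each group had 1 library, so no test was possible, and every interval covers counting error only. Runx1, the targeted gene, stood at 93.0 CPM in wild-type microglia and 179 CPM in microglia of the library labelled knock-out. These 3′ tags need not lie in the deleted part of the gene, so they do not check the label.

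Marker RNA of one class was counted in the barcodes of the other classes, and mostly by different amounts in the libraries. The 10 endothelial markers summed to 6787 CPM in wild-type microglia and 2318 CPM in microglia of the library labelled knock-out, against 21852 and 23151 CPM in endothelial barcodes. In mural barcodes the endothelial markers summed to 14280 and 14535 CPM. The mural cluster led by Rgs5 and Vtn held 7 mural markers, but also 8 endothelial markers, at the level used for naming. The 12 microglia markers summed to 13922 and 5836 CPM in endothelial barcodes, against 36980 and 41018 CPM in microglia. Erythrocyte markers summed to 6038 and 20181 CPM in mural barcodes and to 3400 and 1733 CPM in microglia. None of the microglia and endothelial markers was at 0 in any of the 3 classes. Except for endothelial markers in mural barcodes, the level of another class's RNA given here therefore moved with the group. The part of such RNA in the results below was not tested.

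The promoter windows of several members held the letters of the response element, and a stretch around the matches is shown for those whose levels the results turn on. Windows ran from 250 bases before to 50 bases after the RefSeq start on GRCm38.p6, and 27 members had one. The core of the response element, GAAA and GAAA with any 2 bases between them, was searched on both strands and was found in 13 of 27 members (48.1%) and in 3.99% of 27025 genes. The motif TTCNNNGAA, a palindrome of the interferon-gamma-activated site type, was found in 9 of 27 members (33.3%) and in 9.55% of all genes. It overlapped the first motif in 2 places of the member windows. Sequences run 5′ to 3′ on the strand of the gene, with the matched letters in capitals, and a match on the other strand reads TTTC first. Isg15 is at chr4:156200855-156200916 (minus strand), with 3 matches that overlap. Ifit1 is at chr19:34640765-34640833 (plus strand) and Ifit3 at chr19:34583353-34583436 (plus strand), each with 2 matches on the strand opposite to the gene. Rsad2 is at chr12:26456543-26456592 (minus strand), Bst2 at chr8:71537567-71537622 (minus strand) and Ifitm2 at chr7:140955978-140956027 (minus strand). Ifitm3 is at chr7:141010716-141010742 (minus strand), just after the RefSeq start rather than before it. Irf1 is at chr11:53769904-53769952 (plus strand) and is shown for TTCNNNGAA, since the first motif was not in its window.
Isg15: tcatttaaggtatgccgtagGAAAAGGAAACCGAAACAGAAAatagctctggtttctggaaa
Ifit1: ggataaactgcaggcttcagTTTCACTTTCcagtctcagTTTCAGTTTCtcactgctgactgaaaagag
Ifit3: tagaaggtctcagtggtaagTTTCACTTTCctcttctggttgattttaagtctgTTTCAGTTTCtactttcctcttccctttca
Rsad2: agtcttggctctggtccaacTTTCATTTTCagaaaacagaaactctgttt
Bst2: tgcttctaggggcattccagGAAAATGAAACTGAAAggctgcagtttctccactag
Ifitm2: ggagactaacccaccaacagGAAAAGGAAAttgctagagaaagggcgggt
Ifitm3: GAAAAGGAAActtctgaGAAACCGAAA
Irf1: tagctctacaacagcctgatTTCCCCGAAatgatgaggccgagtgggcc
A match is a description of these letters in these windows, and says nothing of binding in these cells.

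Most of the members had their highest level in endothelial barcodes, not in the microglia that were sorted for. Of 30 members with at least 20 CPM in some class and library, 22 had the highest of the 3 classes in endothelial barcodes of both libraries, where 29.8% of 7385 genes did. Mural barcodes were highest in both libraries for Ifitm1 and Rsad2 (20.2% of all genes), and microglia for Irf1 alone (23.8%). Mural barcodes held the endothelial marker RNA given above, and the part of such RNA in mural levels was not tested. With the stricter rule that the interval lay above both other classes in both libraries, the endothelial count was 8 (5.2% of all genes), made up of Ifit1, Ifitm3, Ifi27, Ifi35, Usp18, Slfn5, Ifnar1 and Ifnar2. Under that rule the mural count was 1, Ifitm1 (5.38%), and the microglial count was 1, Irf1 (13.7%). Endothelial levels were above microglial levels for 27 of the 30 in the wild type (67.3% of all genes) and for 29 of 30 in the library labelled knock-out (67.4%).

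**Figure D1:**
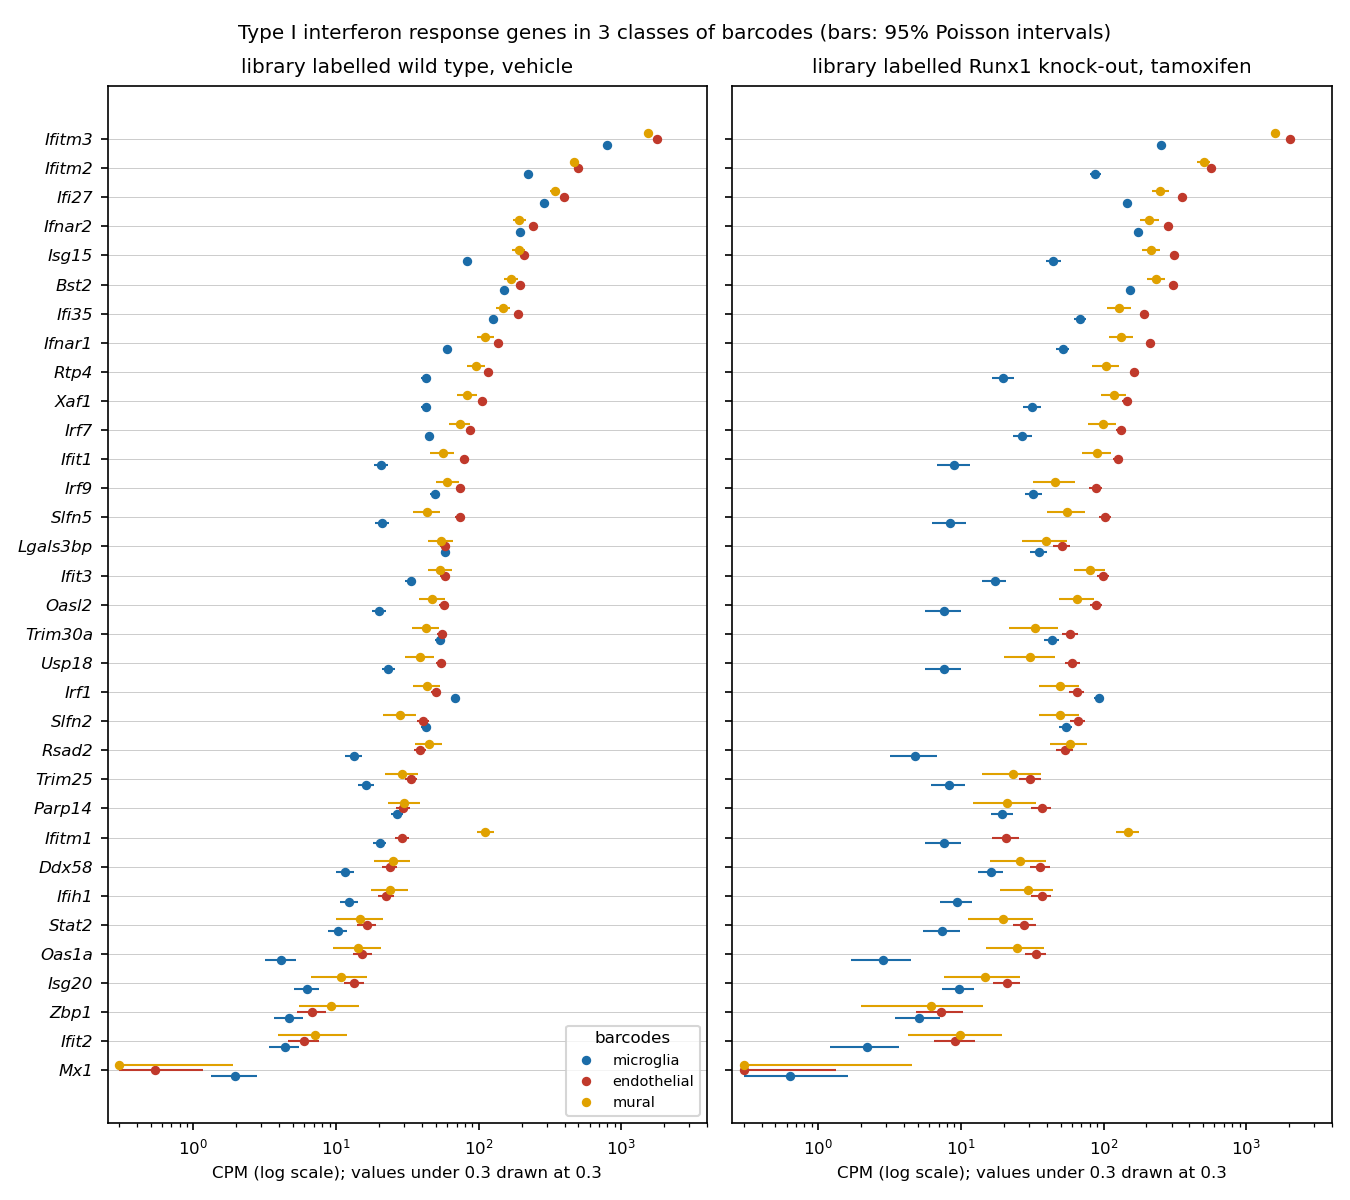
CPM on a log scale of the 33 members in microglia (blue), endothelial (red) and mural (yellow) barcodes of each library, sorted by the endothelial level in the wild type; bars are 95% Poisson intervals and levels under 0.3 CPM are drawn at 0.3. Red points lie right of blue points for most members in both panels, the gap is wider in the right panel, and Irf1 and Ifitm1 stand out as highest in microglia and in mural barcodes.

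Counted as molecules rather than in CPM, the endothelial barcodes also held more of the members' RNA than any other class. They had the most UMIs of the 3 classes for 23 of 33 members in the wild type (31.2% of all genes) and for 26 in the library labelled knock-out (38.1%). Members were counted here without a minimum level, while all genes are the 7385 with at least 20 CPM in some class and library. Microglia had the most for 10 (66.6% of all genes) and 6 (59.3%), and mural barcodes for 0 (2.21%) and 1 (2.63%). Microglia held 42.2% of all UMIs of the wild type and 30.0% of the members' summed UMIs, and 48.5% and 21.1% in the library labelled knock-out. Endothelial barcodes held 29.7% of all UMIs and 39.2% of the members' UMIs in the wild type, and 31.9% and 55.4% in the library labelled knock-out. Ifitm2 and Ifitm3 together gave a large part of these sums, and without that pair the summed level was 1553 and 1118 CPM in microglia and 2514 and 3227 CPM in endothelial barcodes.

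Between the libraries, 14 of 22 members counted in microglia were at least 1.5-fold lower and 13 of 30 counted in endothelial barcodes at least 1.5-fold higher in the library labelled knock-out, with exceptions given by gene further on. In microglia 22 members reached 20 CPM in at least 1 library, and 19 of them had a ratio below 0, with a median of −0.81, where 53.3% of 5740 genes were below 0 and their median was −0.04. At least 1.5-fold lower, with an interval that excluded 0, were 14 members (12.2% of all genes) and none was as much higher (8.08% of all genes). In endothelial barcodes 30 members reached 20 CPM, 26 had a ratio above 0 (61 % of 6286 genes) and the median was 0.48, against 0.09 for all genes. Here 13 members were at least 1.5-fold higher (5.44% of all genes) and none as much lower (5.73%). In mural barcodes the median of 28 members was 0.18, against 0.05 for all genes, and 20 had a ratio above 0 (55.2% of 6719 genes). At least 1.5-fold higher there were Ifit1 and Slfn2, 2 members (7.59% of all genes), and none was as much lower (5.86%). In 13 of the 22 members counted in both microglia and endothelial barcodes, the interval lay below 0 in the first and above 0 in the second (8.03% of 5167 genes).

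The filter on low levels has a part in these counts. In microglia 7 of the 22 passed only through the wild-type library (Ifit1, Ifit3, Ifitm1, Usp18, Rtp4, Slfn5 and Parp14), and had to be lower in the other. The 15 members with at least 20 CPM in both libraries had a median of −0.61 and 8 were at least 1.5-fold lower, against 8.67% of 4890 genes. In endothelial barcodes Isg20, Stat2 and Oas1a passed only through the library labelled knock-out, and the other 27 had a median of 0.46. Of the 15 members with that level in both libraries of both classes, 8 had opposite directions with intervals that excluded 0 (6.71% of 4294 genes); Ifit1, Ifit3, Rtp4, Slfn5 and Parp14 are not among them. Without any minimum, 27 of the 33 members had a ratio below 0 in microglia (54.7% of 14342 genes) and 28 had one above 0 in endothelial barcodes (57.5% of 13808 genes).

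**Figure D2:**
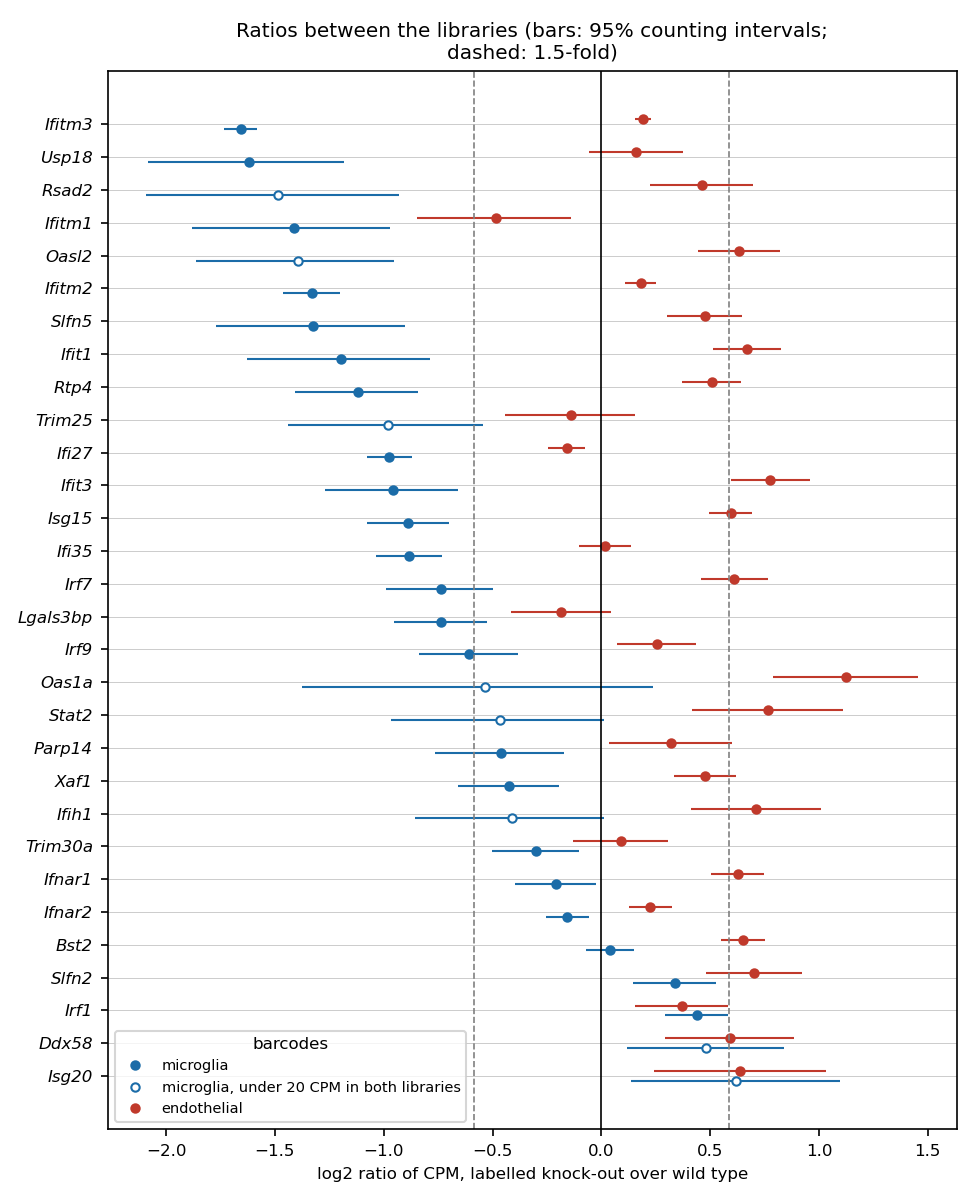
Log2 ratio of CPM, library labelled knock-out over wild type, of the 30 members with at least 20 CPM in endothelial barcodes, in microglia (blue) and endothelial barcodes (red), sorted by the microglial ratio; bars are 95% counting intervals, dashed lines mark 1.5-fold and open points had under 20 CPM in both libraries. Blue points lie mostly left of 0 and red points mostly right of it. Irf1, Slfn2, Ddx58, Isg20 and Bst2 are right of 0 in both, Bst2 with a microglial interval that holds 0.

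Members that were at least 2-fold higher in endothelial barcodes had microglial ratios near those of other genes with the same class order. Genes at least 2-fold higher in endothelial than in microglia barcodes of both libraries numbered 504 among those counted in microglia, with a median ratio of −0.91 there, and 335 of them (66.5%) were at least 1.5-fold lower. The members among these genes numbered 9 of the 22 counted in microglia, with a median of −1.20. Of the 9, 7 were at least 1.5-fold lower, a share near that of the 504. Ifit1, Usp18, Rtp4 and Slfn5 are among the 7, passed the minimum only through the wild type, and had to be lower. In endothelial barcodes 932 such genes had a median ratio of 0.30 and 93 (9.98%) were at least 1.5-fold higher, and of 13 members among them 5 were. In microglia all 10 endothelial markers had a ratio below 0, between −1.75 and −0.34, with a median of −1.54. In endothelial barcodes those markers lay between −0.08 and 0.53, with a median of 0.16.

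A subtraction of the pooled RNA of each library changed how many members passed. It was scaled so that endothelial markers went to 0 in microglia, and microglia markers in endothelial and mural barcodes. Mural values were thus not scaled to their endothelial marker RNA. The step took 50.4% of the wild-type microglial total and 21.01% in the library labelled knock-out. Of the 33 members, 15 then reached 20 CPM in microglia, 7 were at least 1.5-fold lower (6.47% of 5298 genes after the same step), and the median was −0.48. The 7 were Ifit3, Ifitm2, Ifitm3, Ifi27, Ifi35, Irf7 and Lgals3bp. Of these, Ifit3 (21.8 and 7.74 CPM) and Irf7 (23.6 and 14.2 CPM) then passed only through the wild type, and had to be lower. The subtracted values have no intervals. The microglial levels of Ifit1, Oas1a and Slfn5 went to or below 0 in both libraries. In endothelial barcodes the same step took 54.2% and 24.1%, and the median was 0.30. There 4 members were at least 1.5-fold higher (5.52% of 6103 genes), namely Ifit3, Stat2, Oas1a and Slfn2. Stat2 (19.8 and 31.5 CPM) passed only through the library labelled knock-out, and had to be higher.

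The receptor chains differed between the classes in level and in ratio. Ifnar1, the chain that anchors Tyk2, was at 59.7 CPM (55.9 to 63.6) in wild-type microglia and 51.6 CPM (46.2 to 57.5) in microglia of the library labelled knock-out, a ratio of −0.21 (−0.39 to −0.03). In endothelial barcodes Ifnar1 was at 137 CPM (131 to 144) and 212 CPM (198 to 226), a ratio of 0.63 (0.50 to 0.75). The intervals of the 2 endothelial levels did not overlap, while those of the microglial levels did. Ifnar2, the chain that binds interferon most tightly and anchors Jak1, was at 194 and 174 CPM in microglia, a ratio of −0.16 (−0.26 to −0.06), and at 242 and 283 CPM in endothelial barcodes, a ratio of 0.23 (0.13 to 0.32). The subtraction above turned the Ifnar1 ratio in microglia to 0.51.

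Among the transcription factors, Irf7, which amplifies the interferon response and is itself induced by it, and Irf9, the DNA-binding subunit of the Stat complex, went opposite ways in the 2 classes. Irf7 was at 45.0 CPM (41.8 to 48.5) and 27.0 CPM (23.1 to 31.4) in microglia, a ratio of −0.74 (−0.99 to −0.50). In endothelial barcodes Irf7 was at 87.1 and 133 CPM, a ratio of 0.61 (0.46 to 0.76). Irf9 was at 49.1 and 32.2 CPM in microglia, a ratio of −0.61 (−0.84 to −0.38), and at 73.8 and 88.1 CPM in endothelial barcodes, a ratio of 0.26 (0.07 to 0.43). Stat2, the subunit that activates transcription in that complex, stayed under 20 CPM in microglia and was at 16.4 and 27.9 CPM in endothelial barcodes, a ratio of 0.77 (0.42 to 1.11).

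Irf1, a factor induced by both interferon types and by other signals, was the only member above 20 CPM with its highest class level in microglia in both libraries. Its ratio above 0 in both classes, with intervals that excluded 0 in microglia, was shared by Slfn2, Ddx58 and Isg20, the last pair under 20 CPM in microglia. It was at 68.6 CPM (64.6 to 72.8) in wild-type microglia and 93.0 CPM (85.6 to 101) in microglia of the library labelled knock-out, a ratio of 0.44 (0.29 to 0.58). In endothelial barcodes Irf1 was at 50.2 and 64.8 CPM, a ratio of 0.37 (0.16 to 0.58). Microglia stood above endothelial barcodes in both libraries, and Irf1 was higher in both classes of the library labelled knock-out. Its ratio stayed under 1.5-fold in both.

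The cytosolic sensors were low in microglia. Ifih1, which senses long double-stranded RNA and is also called MDA5, was at 12.4 and 9.31 CPM in microglia and 22.4 and 36.7 CPM in endothelial barcodes, where the ratio was 0.71 (0.41 to 1.01). Ddx58, also called RIG-I, was at 11.6 and 16.3 CPM in microglia and 23.8 and 35.8 CPM in endothelial barcodes, a ratio of 0.59 (0.29 to 0.89). Zbp1, a sensor of Z-form nucleic acid, stayed under 20 CPM in all 3 classes of both libraries.

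Of the ubiquitin-like system, Isg15, a ubiquitin-like protein that is joined to other proteins, was at 82.3 CPM in wild-type microglia and 44.5 CPM in microglia of the library labelled knock-out, a ratio of −0.89 (−1.08 to −0.70). In endothelial barcodes Isg15 was at 208 and 314 CPM, a ratio of 0.59 (0.49 to 0.69). The directions were opposite and both intervals excluded 0. Usp18, which removes Isg15 from proteins and damps the receptor, was at 23.3 and 7.58 CPM in microglia, a ratio of −1.62 (−2.08 to −1.18), and at 54.2 and 60.5 CPM in endothelial barcodes, where the interval of the ratio, −0.06 to 0.37, held 0. Trim25, the ligase that activates RIG-I, was under 20 CPM in microglia and at 33.6 and 30.5 CPM in endothelial barcodes. Trim30a was at 53.3 and 43.3 CPM in microglia, a ratio of −0.30 (−0.50 to −0.10).

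The antiviral effectors gave the widest spread. Ifit1, which binds viral RNA that lacks the host's cap methylation, was at 20.6 CPM (18.4 to 23.0) and 8.998 CPM (6.81 to 11.7) in microglia, a ratio of −1.20 (−1.63 to −0.79). In endothelial barcodes Ifit1 was at 79.4 CPM (74.3 to 84.8) and 126 CPM (116 to 138), a ratio of 0.67 (0.51 to 0.83). The endothelial level was 3.85 times the microglial level in the wild type and 14.0 times in the library labelled knock-out. Ifit3, its partner, was at 33.4 and 17.2 CPM in microglia, a ratio of −0.96 (−1.27 to −0.66), and at 57.6 and 98.7 CPM in endothelial barcodes, a ratio of 0.78 (0.59 to 0.96). Ifit3b, a near copy on the same chromosome, had a ratio of 1.36 in endothelial barcodes (24.2 and 62.2 CPM), and counts of the 2 genes could be split by the counting, so each is uncertain. Ifit2 stayed under 20 CPM in all 3 classes.

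The Ifitm proteins block the fusion of viruses with cell membranes. Ifitm3 was at 800 CPM (786 to 814) in wild-type microglia and 254 CPM (241 to 266) in microglia of the library labelled knock-out, a ratio of −1.66 (−1.73 to −1.58). This was the lowest ratio of the members counted in microglia, and lies within the range of the endothelial markers there. In endothelial barcodes Ifitm3 was at 1775 and 2026 CPM, a ratio of 0.19 (0.15 to 0.23). Ifitm2 was at 221 and 87.8 CPM in microglia, a ratio of −1.33 (−1.46 to −1.20), and at 497 and 563 CPM in endothelial barcodes, a ratio of 0.18 (0.11 to 0.25). The subtraction above put the endothelial ratios of Ifitm3 and Ifitm2 at −0.020 and −0.050. In microglia the same step put Ifitm3 at 316 and 39.7 CPM, a ratio of −2.99, and the ratio of Ifitm2 at −1.48.

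Ifitm1 was the member of that family with its highest class level in mural barcodes. It was at 112 CPM (97.2 to 127) and 148 CPM (122 to 176) in mural barcodes, against 20.2 and 7.58 CPM in microglia and 28.9 and 20.7 CPM in endothelial barcodes. The pericyte cluster, led by Rgs5 and Vtn, held it at 123 and 162 CPM. The smooth muscle cluster, led by Tagln and Acta2, held it at 22.5 CPM (7.30 to 52.5) and 12.9 CPM (0.327 to 72.0). These smooth muscle levels rest on 5 UMIs of 35 barcodes and 1 UMI of 18 barcodes. Within the endothelial class, the cluster led by Ackr1 and Vwf held Ifitm1 at 97.9 CPM (80.1 to 119) in the wild type. That interval overlapped that of mural barcodes. In the other library Ifitm1 was at 155 CPM (62.3 to 319) there, from 7 UMIs of 4 barcodes. The smooth muscle cluster also had less endothelial marker RNA, at 6703 and 3592 CPM, than the pericyte cluster, at 15254 and 15686 CPM. The members' sum was 4382 and 4788 CPM in the pericyte cluster and 2769 and 1899 CPM in the smooth muscle cluster, and the median ratio over the smooth muscle cluster alone was −0.38 in 20 members, opposite to that of all mural barcodes.

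Bst2, or tetherin, which holds budding virus at the cell surface, did not follow the other effectors that reached 20 CPM in microglia. It was at 150 CPM (144 to 156) in wild-type microglia and 154 CPM (144 to 164) in microglia of the library labelled knock-out, and the interval of the ratio, −0.07 to 0.15, held 0. In endothelial barcodes Bst2 was at 195 CPM (187 to 204) and 307 CPM (290 to 324), a ratio of 0.65 (0.55 to 0.75). The endothelial level was 1.31 times the microglial level in the wild type.

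Oasl2 and Oas1a belong to the oligoadenylate synthetases, which respond to double-stranded RNA, and Rsad2, or viperin, makes a chain-terminating nucleotide. All of these stayed under 20 CPM in microglia. Oasl2 was at 57.1 and 88.6 CPM in endothelial barcodes, a ratio of 0.63 (0.45 to 0.82). Oas1a, at 15.3 and 33.4 CPM, had the highest endothelial ratio of the members counted there, 1.12 (0.79 to 1.46). Rsad2 was at 38.7 and 53.3 CPM in endothelial barcodes and at 44.5 and 57.8 CPM in mural barcodes, with overlapping intervals. Isg20, an exonuclease, was at 13.4 and 20.9 CPM in endothelial barcodes, and at 64.5 and 91.9 CPM in the cluster with erythrocyte markers. In microglia Isg20 was at 6.26 and 9.63 CPM, a ratio of 0.62 (0.14 to 1.10). Mx1 stayed under 2 CPM in microglia and endothelial barcodes and had no UMI in mural barcodes, where 3 counts are 1.53 CPM in the wild type and 3.69 CPM in the library labelled knock-out. Many laboratory strains, including C57BL/6J, carry a defective Mx1.

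Of the other induced genes, Rtp4 was at 42.9 and 19.7 CPM in microglia, a ratio of −1.12 (−1.41 to −0.84), and at 116 and 164 CPM in endothelial barcodes, a ratio of 0.51 (0.37 to 0.64). Slfn5 was at 20.9 and 8.37 CPM in microglia, a ratio of −1.32 (−1.77 to −0.90), and at 73.6 and 102 CPM in endothelial barcodes. Xaf1, which binds an inhibitor of cell death, was at 42.4 and 31.6 CPM in microglia, a ratio of −0.42 (−0.66 to −0.20), and at 105 and 146 CPM in endothelial barcodes. These genes were lower in microglia and higher in endothelial barcodes of the library labelled knock-out. Ifi27 was lower in all 3 classes, at 287 and 146 CPM in microglia, 398 and 357 CPM in endothelial barcodes and 343 and 251 CPM in mural barcodes. Ifi35 was at 127 and 68.7 CPM in microglia and at 190 and 193 CPM in endothelial barcodes, where the interval of its ratio held 0. Lgals3bp, a secreted glycoprotein, was at 58.4 and 35.0 CPM in microglia, a ratio of −0.74 (−0.95 to −0.52), and at 57.8 and 50.9 CPM in endothelial barcodes. Parp14, an ADP-ribosyltransferase, was at 26.8 and 19.4 CPM in microglia and 29.4 and 36.7 CPM in endothelial barcodes. Slfn2 was higher in both classes, at 42.9 and 54.1 CPM in microglia and 40.6 and 66.0 CPM in endothelial barcodes.

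Several members lie on or against other genes, and per the annotation Irf7 overlaps Phrf1, Rtp4 overlaps Masp1 and Slfn5 overlaps Slfn5os on the opposite strand, while Irf9 overlaps Rnf31, Rtp4 also Gm45338, Ifitm2 Gm45717, Parp14 Gm49730 and Ifnar2 Gm21970 on the same strand. How such reads were assigned was not used here, and the levels of these members are uncertain to that extent, as are those of the Ifitm, Oas, Slfn and Trim30 families of close copies.

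Each cell was thinned to 1500 UMIs so that depth did not set what was detected. Microglia then carried a mean of 3.86 member UMIs per cell in the wild type and 2.18 in the library labelled knock-out, endothelial barcodes 7.10 and 8.74, and mural barcodes 5.84 and 6.74. At least 3 different members were seen in 62.7% of wild-type microglia (exact binomial 95% interval 60.6% to 64.7%) and in 30.9% (28.5% to 33.4%) of those in the library labelled knock-out, and unthinned in 99.1% and 77.4%. In endothelial barcodes the thinned shares were 90.0% and 92.8%. The variance of member UMIs over their mean was 1.08 and 1.27 in microglia and 1.33 and 2.01 in endothelial barcodes, where 1 is the value for pure counting. The highest endothelial cell had 20 member UMIs in the wild type and 29 in the library labelled knock-out, and the highest microglia had 16 in each.

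**Figure D3:**
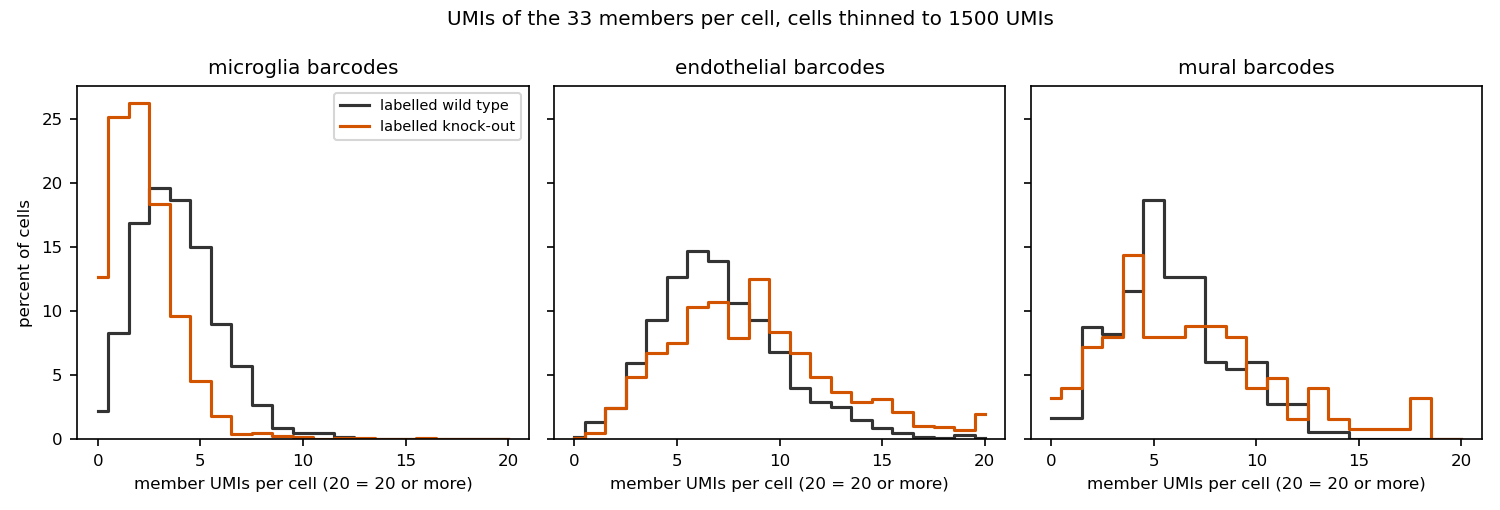
Percent of cells (y) by number of UMIs of the 33 members in a cell (x, 20 or more pooled at 20), with all cells thinned to 1500 UMIs, for microglia, endothelial and mural barcodes of each library. The microglial curve of the library labelled knock-out lies left of that of the wild type, and in endothelial barcodes it has a longer right tail.

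Within the endothelial class, some members were seen together in the same cells. In the wild type 141 of the 1535 endothelial cells had an Ifit3 UMI after thinning, and in the library labelled knock-out 112 of 862 had one. Cells with an Ifit3 UMI held 2.32 times as many Ifit1 UMIs per cell as the others in the wild type (1.52 to 3.45) and 2.41 times in the library labelled knock-out (1.68 to 3.41). For Isg15 the fold was 1.54 (1.16 to 2.02) and 1.75 (1.37 to 2.21), for Rtp4 it was 1.90 (1.36 to 2.60) and 1.94 (1.37 to 2.70), and for Xaf1 it was 1.82 (1.23 to 2.62) and 1.95 (1.35 to 2.77). The interval lay above 1 for 5 of 25 members in the wild type, where it did for 2.39% of 5449 genes, and for 7 of 27 in the library labelled knock-out, where it did for 2.94% of 5281 genes. Ifnar1, Ifi27 and Ifitm2 had intervals that held 1 in both libraries. The cells of a library are not replicates, so these folds describe cells of 1 library each.

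Microglia were also compared at matched amounts of endothelial marker RNA. Where a thinned cell held 4 to 5 endothelial marker UMIs, wild-type microglia carried 3.96 member UMIs per cell (3.60 to 4.34) and microglia of the library labelled knock-out 2.18 (2.04 to 2.33). At 6 to 7 marker UMIs the values were 3.81 and 2.37, and at 8 to 9 they were 3.78 and 2.74, where the latter rests on 34 cells. The wild-type level was between 3.78 and 4.10 over all bins. In endothelial barcodes with 12 to 15 microglia marker UMIs the members were at 7.11 UMIs per cell in the wild type and 7.99 in the library labelled knock-out. The direction of the difference was the same in every bin that both libraries filled with at least 20 cells. Thinned single cells hold few marker UMIs, so a bin does not fix the amount of free RNA in a cell.

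**Figure D4:**
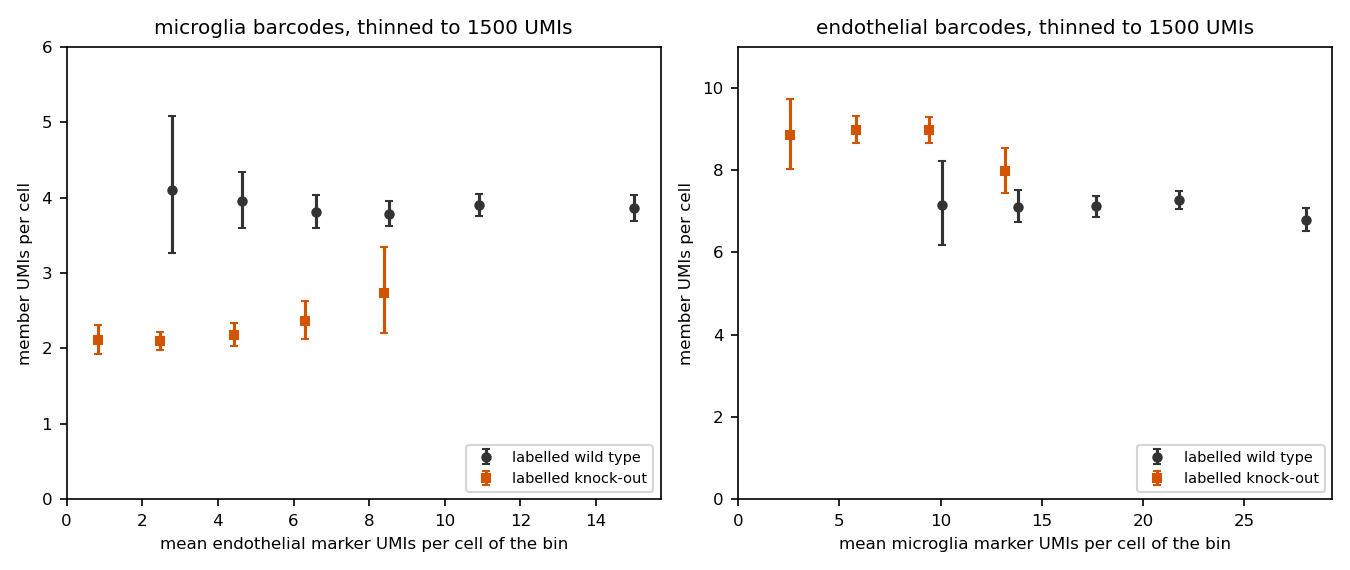
Member UMIs per cell (y) against the mean number of marker UMIs of the other class per cell of the bin (x), for microglia with endothelial markers (left) and endothelial barcodes with microglia markers (right), cells thinned to 1500 UMIs; bars are 95% Poisson intervals. Wild-type microglia stay near 4 at every amount of endothelial marker RNA. Those of the library labelled knock-out lie between 2.102 and 2.74, highest at the largest amount.

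The highest summed level of the members among the larger clusters was in a cluster led by Gkn3, Vegfc and Bmx. This cluster carried endothelial markers (20270 CPM in the wild type) but stayed unnamed, with 101 wild-type barcodes and 9 of the library labelled knock-out. The members summed to 6026 CPM there in the wild type, against 4786 CPM in the endothelial class. Ifitm3 was a large part of this difference, at 2460 CPM against 1775 CPM. Isg15 was at 337 CPM (299.9 to 378), Irf7 at 181 CPM (154 to 211) and Ifit1 at 139 CPM (115 to 165) in that cluster, above the wild-type endothelial class for each. Other members were lower there than in that class. Slfn5 was at 47.7 CPM (34.4 to 64.5) against 73.6 CPM (68.6 to 78.8), and Ifitm1 at 14.8 CPM against 28.9 CPM.

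Other genes of the pathway were taken from a list of 76, of which 74 had a row. In microglia 36 reached 20 CPM, with a median ratio of −0.16, 2 at least 1.5-fold lower (12.2% of all genes) and 4 as much higher (8.08%). In endothelial barcodes 44 did, with a median of 0.29, 5 lower (5.73% of all genes) and 7 higher (5.44%). The interferons themselves were near the floor: Ifna4, Ifna2 and Ifnk had no UMI in microglia, where 3 counts are 0.190 CPM in the wild type and 0.474 CPM in the library labelled knock-out, and Ifnb1 was at 0.633 and 0.316 CPM. The highest ratios in microglia were those of Stat3, a factor of many cytokine receptors, at 0.76 (72.7 and 123 CPM), Mb21d1, the DNA sensor cGAS, at 0.66 (21.4 and 33.9 CPM), Slfn8 at 0.61 and the kinase Jak1 at 0.60 (106 and 161 CPM). Among the lowest were those of Sp100 at −0.88, Ly6e at −0.64 and Shisa5 at −0.58.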

How the data were processed

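The authors deposited a matrix of whole-number UMI counts (genes by barcodes) for each library. Per the submitters' processing notes, STAR, Cell Ranger 2.0.1, Seurat 2.1.0, mm10 and GRCm38.p5 had some part in this, not stated further. Cells were sorted by YFP and made into 10x 3′ libraries, per the labels' protocols. The members and lists were chosen with earlier results of these data known. Every member is accounted for, and the pathway genes named are the 4 highest and 4 lowest microglial ratios whose interval excluded 0, of which 1 is not reported here.

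From the counts, barcodes under 300 genes or over 10% mitochondrial UMIs were dropped, 8 in all. Both libraries were clustered together in scanpy 1.11.5 (2000 variable genes, 30 principal components, 15 neighbours, leidenalg 0.10.2 at resolution 0.5), without the members, Runx1 and sex-linked genes. Clusters were named by markers with at least 2 of them among the top 10 genes by fold, or by the largest share of a list with no rival at 60% of it, and needed 3 counted markers and 50% of the list. This scoring was set after clusters were seen, as in earlier work on these data, so a difference from the study may come from rebuilt names. A cluster with microglia and endothelial markers together, a Gkn3-led cluster and a cycling cluster stayed unnamed and belong to no class. No doublets were removed in the main values. CPM used all genes of a class as the total. A count of 0 was read as a floor of 3 counts. Python 3.11.15 and scipy 1.17.1 gave the intervals. Data were simulated as Poisson counts, so spread beyond counting was not part of them. For microglia, with 5394 genes in the step, all of the 50 genes set at each of 0.25, 0.5, 2 and 4 times the level were called. The intervals held the true ratio for 96.0% of unchanged genes. For mural barcodes, 84% of the genes set at 0.5 times and 96% of those at 2 times were called, as were 2.09% of unchanged genes. Alternatives changed the scaling, weight per cell, depth, filters, doublets, classes, minimum level and background; 2 were chosen after seeing the data. Gene overlaps are from GENCODE M21 on GRCm38 and promoter windows from RefSeq on GRCm38.p6.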

Additional observations from a re-analysis of the deposited data

Results flagged for a closer look

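For 13 of the 22 members counted in both classes, the ratio of the library labelled knock-out over the wild type went opposite ways in microglia and endothelial barcodes, with counting intervals below 0 in the first and above 0 in the second (8.03% of 5167 genes did so). Of these, Ifit1, Ifit3, Rtp4, Slfn5 and Parp14 reached 20 CPM in microglia only through the wild type, which fixed their direction there. With 1 library per group the difference between the classes was not tested. Among the receptor chains and transcription factors, the log2 ratio in microglia and in endothelial barcodes was −0.21 and 0.63 for Ifnar1, −0.16 and 0.23 for Ifnar2, −0.74 and 0.61 for Irf7 and −0.61 and 0.26 for Irf9. Among the antiviral effectors and Isg15, it was −1.20 and 0.67 for Ifit1, −0.96 and 0.78 for Ifit3, −1.33 and 0.18 for Ifitm2, −1.66 and 0.19 for Ifitm3 and −0.89 and 0.59 for Isg15. Among the other induced genes, it was −1.12 and 0.51 for Rtp4, −1.32 and 0.48 for Slfn5, −0.42 and 0.48 for Xaf1 and −0.46 and 0.32 for Parp14. With the background subtracted, the ratio in microglia was 0.51 for Ifnar1, 0.53 for Xaf1 and −2.99 for Ifitm3. The endothelial ratio was then −0.050 for Ifitm2 and −0.020 for Ifitm3. The microglial levels of Ifit1 and Slfn5 were then below 0 CPM in both libraries. The endothelial markers had a median ratio of −1.54 in microglia and 0.16 in endothelial barcodes, and the part of such RNA in these differences was not tested.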

How the results depend on the processing

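No paired analysis was possible because each group had 1 library, and for the same reason no library could be left out. The direction of the median ratio was kept in microglia and endothelial barcodes under every alternative that gave a value, and in mural barcodes under all but 2 of them. With a minimum of 50 CPM the microglial median was −0.52 over 12 members with 9 below 0, and 2 endothelial and 4 mural members were below 0. With the background subtracted the microglial median was −0.48 with 11 of 15 members below 0, 8 of 30 endothelial members were below 0, and the mural median turned to −0.021 with 15 of 29 below 0. With the smooth muscle cluster alone (35 and 18 barcodes), added after seeing the data, the mural median turned to −0.38 with 15 of 20 below 0. In that cluster Ifitm1, Irf7, Slfn2 and Xaf1 each had 1 UMI in the library labelled knock-out. The direction of their ratios there is therefore uncertain. Of single genes with an interval that excluded 0 and a value after the change, these turned with the background subtracted (Ifnar1 in microglia to 0.51, Ifitm2 and Ifitm3 in endothelial barcodes to −0.050 and −0.020, Ifitm1 in mural barcodes to −0.19; Xaf1 in microglia was at 0.53 but under 20 CPM) and with the smooth muscle cluster alone (Ifitm1 to −0.80, Irf7 to −2.18, Slfn2 to −0.80, Xaf1 to −1.65). With barcodes classed by markers at 50%, also added, endothelial Ifitm1 turned to 0.23, and over 13 and 21 mural barcodes Ifit1 turned to −0.0061, Ifi27 to 0.068, Irf7 to −1.59 and Bst2 to −0.23. The cause was not tested. At 80% that gate gave no value for endothelial or mural barcodes or the class order. With cells thinned to 1500 UMIs, microglial ratios shrank for Irf7 (to −0.22), Slfn5 (to −0.76), Ifitm1 (to −0.89) and Ifi27 (to −0.84). They grew in size for Ifitm2 (to −1.48) and Trim30a (to −0.51). In all, 788 of the single-gene values were counted as the same, 74 as moved and 13 as reversed. Only values whose main interval excluded 0 were counted as reversed. Some of the others changed sign too. With the background subtracted, mural Trim30a went from −0.35 to 0.066 and counted as the same. Endothelial Usp18 went from 0.16 to −0.070 and counted as moved. Mural values rest on 182 and 125 barcodes.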
